A study of Mus musculus with 28 samples.

Results

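The genes described here are the protein-coding genes of mouse chromosomes 7 and 13 whose symbol is Zfp followed by a number. RefSeq's annotation of GRCm38.p6, the assembly also called mm10, placed 130 of 21779 protein-coding genes in this set, 93 on chromosome 7 and 37 on chromosome 13. The cells were neural stem cells from E14.5 brains of male embryos, grown with EGF and bFGF, of the strain C57BL/6 x FVB/N, either wild type for Smchd1 or homozygous for the null allele MommeD1. Smchd1 is a non-canonical SMC protein that takes part in X inactivation and in the silencing of clustered genes. The series held 28 libraries: 2 each of Smchd1, H3K4me3 and H3K27me3 chromatin immunoprecipitation in each genotype, 8 of Ctcf, 3 in each genotype of methylated DNA captured by a methyl-CpG-binding protein domain taken from MBD2 (called MBD here), and 1 input of whole cell extract in each genotype. For Ctcf there were 2 libraries each of untransduced wild type, of wild type carrying a non-silencing shRNA, and of null cells. The remaining 2 came from wild-type cells with 1 of the shRNAs Ctcf.6 and Ctcf.7 each. The labels call those cells Ctcf null, although an shRNA lowers a transcript and does not delete the gene, and they were the control for all 3 Ctcf lists. The control for Smchd1 was the same antibody in null cells, and that for the histone marks and MBD was whole cell extract.

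Most Zfp genes of these chromosomes encode Krüppel-type zinc finger proteins, transcription factors whose arrays of C2H2 fingers bind DNA. Many also carry a KRAB domain, which recruits Trim28 (KAP1) and through it the histone methyltransferase Setdb1, and many silence transposable elements. The family grew by tandem duplication, so its genes lie in clusters, and such genes are known for carrying an active mark at the promoter together with DNA methylation and heterochromatin marks over the finger-coding exon near their 3′ end. The symbol does not guarantee this class: Zfp36 (tristetraprolin) has CCCH fingers and promotes decay of mRNAs, and Zfp346 binds double-stranded RNA.

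The data were 11 lists of summits, the single base of highest enrichment in each peak, called by the authors on pooled libraries. Smchd1 in wild-type cells had 2 lists, at thresholds of 5e-4 and 5e-3, and each other assayed group had 1, while the control libraries entered only as background. A gene counted as marked where a summit lay inside it or within 2 kb of it. The score of a summit is the authors' −log10 p- or q-value and orders summits within its own list; a list gives no spread between libraries, so no difference between lists could be tested. The lists hold no read numbers, so the depth of each library is unknown. For the MBD lists, the libraries titled null name the list called wild type, and those titled wild type name the list called D1 (for MommeD1). These 2 lists are therefore called by their own names, and no direction between the genotypes was drawn from them. The handling of reads with several matches in the genome, which bears on genes with near-identical copies, is among the steps not given in the sources used here.

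H3K4me3, a mark of active and poised promoters, was listed at 126 of the 130 Zfp genes (96.9%) in wild-type cells and at the same 126 in null cells. Over all protein-coding genes the share was 62.9% in wild-type cells and 62.6% in null cells. None of the 130 was in 1 of both lists only, against 1.31% of all genes in the wild-type list only and 1.01% in the null list only. Chromosome 7 also holds large clusters of olfactory and vomeronasal receptor genes, which are not active in most tissues. Among the 2724 other coding genes of both chromosomes the wild-type share was 53.3%, and without genes named Olfr or Vmn it was 64.2%. Zfp genes of the other chromosomes, 267 in number, were marked at 86.5% in wild-type and 86.9% in null cells.

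**Figure D1:**
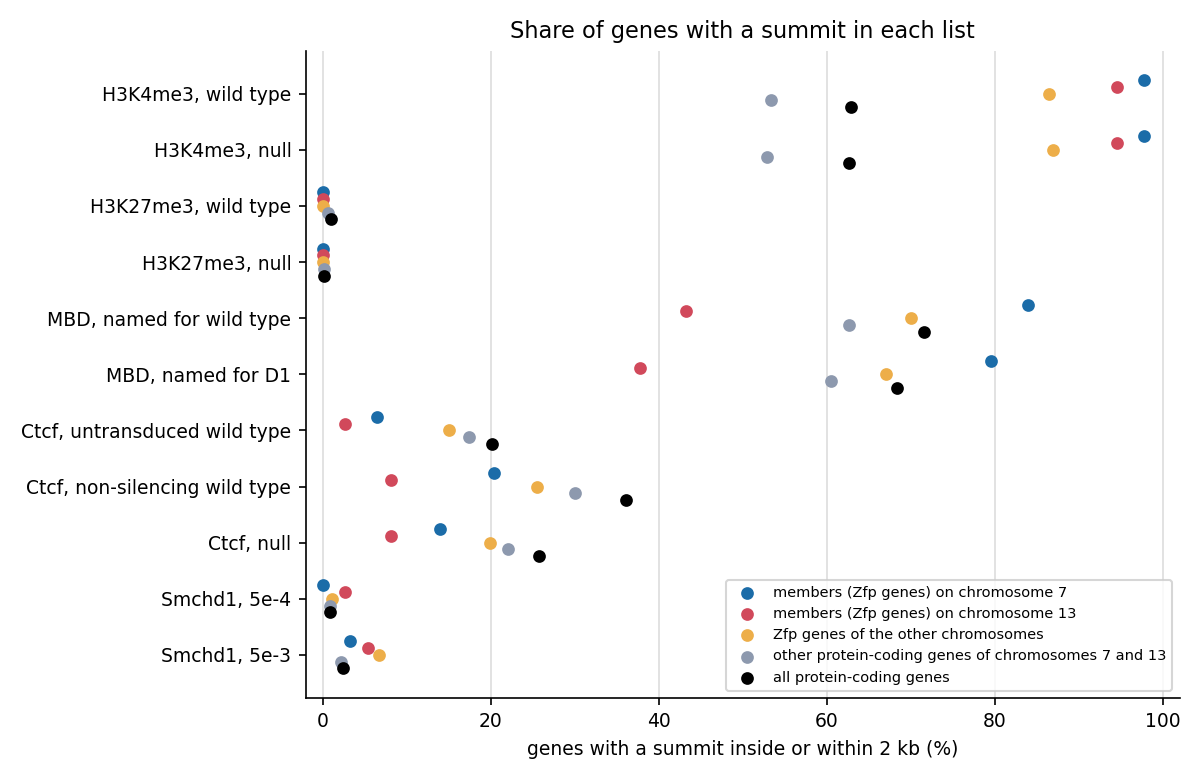
Share of genes, in percent, with a summit inside or within 2 kb in each of the 11 lists (rows), with a point for each group of genes. The Zfp genes of both chromosomes lie at over 90% for H3K4me3, apart from each other for MBD, and below all protein-coding genes in the 3 Ctcf lists.

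The genes without H3K4me3 in either list were Zfp977, Zfp936, Zfp640 and Zfp366. Zfp366, which is known from dendritic cells, has no start in the promoter table. For the other 3, the 250 bases before the annotated start are printed from the RefSeq promoter table of GRCm38.p6, 5′ to 3′ on the gene's strand, with each CpG in capitals. They stand beside the CpG-poorest starts that did carry the mark within 500 bp, those of Zfp27, Zfp418 and Zfp710, and beside the starts with the highest scores, Zfp719 and Zfp322a in wild-type cells and Zfp131 in null cells.
Zfp977 (chr7:42592546-42592795, minus strand): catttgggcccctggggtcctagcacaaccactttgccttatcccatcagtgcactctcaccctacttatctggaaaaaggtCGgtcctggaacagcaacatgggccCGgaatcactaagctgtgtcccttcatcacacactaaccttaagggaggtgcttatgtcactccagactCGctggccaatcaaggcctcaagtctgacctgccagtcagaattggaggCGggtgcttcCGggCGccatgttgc
Zfp936 (chr7:43177340-43177589, plus strand): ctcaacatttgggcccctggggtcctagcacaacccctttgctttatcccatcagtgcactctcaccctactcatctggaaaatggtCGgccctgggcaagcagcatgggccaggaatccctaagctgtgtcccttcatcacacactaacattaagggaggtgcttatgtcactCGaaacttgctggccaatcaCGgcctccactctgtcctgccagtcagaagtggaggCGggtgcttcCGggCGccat
Zfp640 (chr13:66680804-66681053, minus strand): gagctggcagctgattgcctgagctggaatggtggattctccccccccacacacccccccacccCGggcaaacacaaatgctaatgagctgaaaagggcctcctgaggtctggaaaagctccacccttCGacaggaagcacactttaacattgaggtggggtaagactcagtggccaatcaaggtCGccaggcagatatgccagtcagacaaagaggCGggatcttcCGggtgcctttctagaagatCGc
Zfp27 (chr7:29906533-29906782, minus strand): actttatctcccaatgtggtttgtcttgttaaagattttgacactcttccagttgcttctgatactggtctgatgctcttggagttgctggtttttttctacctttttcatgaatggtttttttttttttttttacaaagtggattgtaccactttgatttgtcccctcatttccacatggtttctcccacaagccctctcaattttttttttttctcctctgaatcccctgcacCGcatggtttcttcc
Zfp418 (chr7:7171103-7171352, plus strand): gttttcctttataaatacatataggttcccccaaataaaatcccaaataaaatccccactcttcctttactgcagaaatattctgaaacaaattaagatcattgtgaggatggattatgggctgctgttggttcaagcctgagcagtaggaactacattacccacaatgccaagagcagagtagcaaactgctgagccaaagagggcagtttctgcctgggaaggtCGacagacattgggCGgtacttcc
Zfp710 (chr7:80024564-80024813, plus strand): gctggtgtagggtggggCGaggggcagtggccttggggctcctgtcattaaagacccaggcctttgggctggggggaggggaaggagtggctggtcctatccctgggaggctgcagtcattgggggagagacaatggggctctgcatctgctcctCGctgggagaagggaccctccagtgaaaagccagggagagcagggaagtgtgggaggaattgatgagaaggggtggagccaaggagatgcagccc
Zfp719 (chr7:43579336-43579585, plus strand): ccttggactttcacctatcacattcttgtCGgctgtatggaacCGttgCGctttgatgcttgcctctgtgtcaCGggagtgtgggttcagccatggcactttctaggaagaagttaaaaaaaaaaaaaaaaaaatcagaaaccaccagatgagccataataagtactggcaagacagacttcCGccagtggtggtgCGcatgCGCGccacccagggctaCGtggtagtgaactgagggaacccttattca
Zfp322a (chr13:23369209-23369458, minus strand): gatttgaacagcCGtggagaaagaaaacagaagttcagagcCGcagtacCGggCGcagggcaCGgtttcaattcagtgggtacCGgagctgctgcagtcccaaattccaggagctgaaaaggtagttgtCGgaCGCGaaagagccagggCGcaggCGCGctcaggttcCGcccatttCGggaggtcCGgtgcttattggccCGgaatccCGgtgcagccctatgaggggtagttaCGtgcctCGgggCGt
Zfp131 (chr13:119790733-119790982, minus strand): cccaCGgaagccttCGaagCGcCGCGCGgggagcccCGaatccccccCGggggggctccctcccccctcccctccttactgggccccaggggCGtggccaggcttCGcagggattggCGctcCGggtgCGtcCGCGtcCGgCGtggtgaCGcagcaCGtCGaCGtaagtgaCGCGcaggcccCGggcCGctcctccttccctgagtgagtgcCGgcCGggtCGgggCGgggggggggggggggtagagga

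The unmarked Zfp977, Zfp936 and Zfp640 each held 6 CpG in the 250 bases shown, while Zfp27 held 1 and Zfp418 and Zfp710 held 2 each. At the other end, Zfp719 held 9, Zfp322a 20 and Zfp131 29. The highest scores thus went with starts of very different CpG content.

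The sequences of Zfp977 and Zfp936 are visibly alike. In the 300 bases around the start (250 before and 50 from it on), 31.7% of the 30-base runs of Zfp977 and 32.8% of those of Zfp936 also occurred at the start of another coding gene, on either strand. For Zfp640 the share was 55.7%, most of it shared with Gm17353. Only Zfp607b, at 55.4%, and Zfp976, at 31.7%, had shares as high among the 116 Zfp genes with a known start, and both carried H3K4me3. For Zfp607b, all of the share, 150 of 271 runs, was with Map3k10. Starts close together on a chromosome can share runs because their 300 bases overlap, and overlap was not told apart from copies. In all, 25 of the 116 starts (21.6%) shared a 30-base run with another start, against 19.4% of 17492 starts of all coding genes. On chromosome 13 it was 16 of 31 starts. The part of shared sequence in the absence of summits was not tested.

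At the start itself, within 2 kb, 123 of 130 genes (94.6%) had a summit in both genotypes, against 59.4% of all genes in wild-type and 59.1% in null cells. Among genes with a known start, the missing ones were Zfp977, Zfp936, Zfp640, Zfp541 and Zfp626. Zfp541 had its only summit near its far end, 26129 bp from the start in wild-type and 26125 bp in null cells. The summit of Zfp626 lay just outside the window, at -2233 bp from the start in wild-type and -2223 bp in null cells, where a minus sign means before the start. For the 113 genes with a known start and a summit, the nearest summit lay at a median of 143 bp from the start in wild-type cells and 151 bp in null cells. It was within 1 kb in 110 of the 113 in both. In 95 of them it lay downstream of the start in wild-type cells, and in 92 in null cells.

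The position of the mark was nearly the same in both genotypes. The nearest summits of the 2 lists were a median of 26 bp apart, 87 of 113 pairs were within 100 bp, and the widest gap was 792 bp. The null list held more summits than the wild-type list at 27 Zfp genes, fewer at 9 and the same number at 94. Over all 21779 genes the null list held more at 2781, fewer at 2092 and the same number at 16906. It is also the longer list genome-wide, with 24201 summits against 23449.

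The scores of the Zfp genes were ordinary for marked genes. The highest summit of a marked gene had a median score of 39.5 in the wild-type list, against 40.0 over all marked genes, and 40.4 in the null list. In wild-type cells Zfp719 scored 65.4, Zfp322a 65.4, Zfp935 63.8, Zfp329 63.2 and Zfp771 61.5, the 5 highest among the Zfp genes. In the null list the top was Zfp131 at 85.9, followed by Zfp646 and Zfp668 at 85.0, from 1 summit that lay within 2 kb of both. Zfp553 and Zfp688 followed at 71.8 each. The lowest marked gene was Zfp575, at 8.41 in wild-type and 9.17 in null cells, and Zfp296, a gene of pluripotent cells, stood at 10.3 in both.

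Some members carried several summits. Zfp536, a very long gene whose protein represses neuronal differentiation genes, held 6 in wild-type and 9 in null cells. Its start in the promoter table lies inside the annotated gene, and the summits were spread on both sides of it. The 2 highest in wild-type cells scored 32.9, at 206496 bp past this start, and 31.5, at -1979 bp. In null cells the highest scored 39.4, at -2013 bp. Zfp36 held 4 in each list: in wild-type cells the highest scored 35.7, at 74 bp past the start. In null cells its highest scored 16.6 and lay 3781 bp past the start, beyond the far end, and its summits next to the start scored 9.80 and 9.96. Zfp568, a KRAB protein that represses a placental transcript of Igf2, held 1 summit in each list, with scores of 53.0 in wild-type and 61.5 in null cells.

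H3K4me3 was listed at most of the CpG-poor starts of these genes, while over all genes its share was far lower at such starts. The 116 known starts held a median of 12.5 CpG in 300 bases, and the ratio of observed to expected CpG was 0.62, against 13 CpG and 0.58 over all genes. Of 54 Zfp starts with a ratio up to 0.6, 49 (90.7%) carried H3K4me3 within 2 kb in both genotypes. Over all genes the share at such CpG-poor starts was 26.6% in wild-type and 26.2% in null cells. The mix of ratios differed, since 27 of the 54 Zfp starts lay over 0.4, against 2198 of 9034 over all genes. There all 27 were marked, against 66.3% of all genes in wild-type cells. From 0.2 to 0.4 the wild-type shares were 81.0% and 24.6%. Up to 0.2 they were 5 of 6 Zfp starts and 6.20% of all genes. Above 0.6, all 62 Zfp starts were marked, against 94.6% and 94.3% of all genes. All 5 unmarked Zfp starts had a ratio up to 0.4, where 81.5% were marked, and above 0.4 every Zfp start was marked. The CpG-poor Zfp starts of chromosome 7 were marked in 31 of 35 and those of chromosome 13 in 18 of 19.

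Narrower definitions gave like shares. With a summit required within 500 bp, 47 of the 54 CpG-poor Zfp starts (87.0%) were marked in each genotype, against 22.3% of all such starts in wild-type and 21.9% in null cells. The share at CpG-poor starts of other genes of both chromosomes, leaving out Olfr and Vmn genes, was 29.0% within 2 kb in wild-type cells. Zfp genes of the other chromosomes stood between, at 71.6%. Among Zfp genes with no other coding gene within 2 kb, 43 of 47 CpG-poor starts (91.5%) were marked, against 21.0% of all such starts without a neighbour in wild-type cells. Whether CpG-poor genes elsewhere are inactive in these cells was not tested, since the lists hold no expression.

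**Figure D2:**
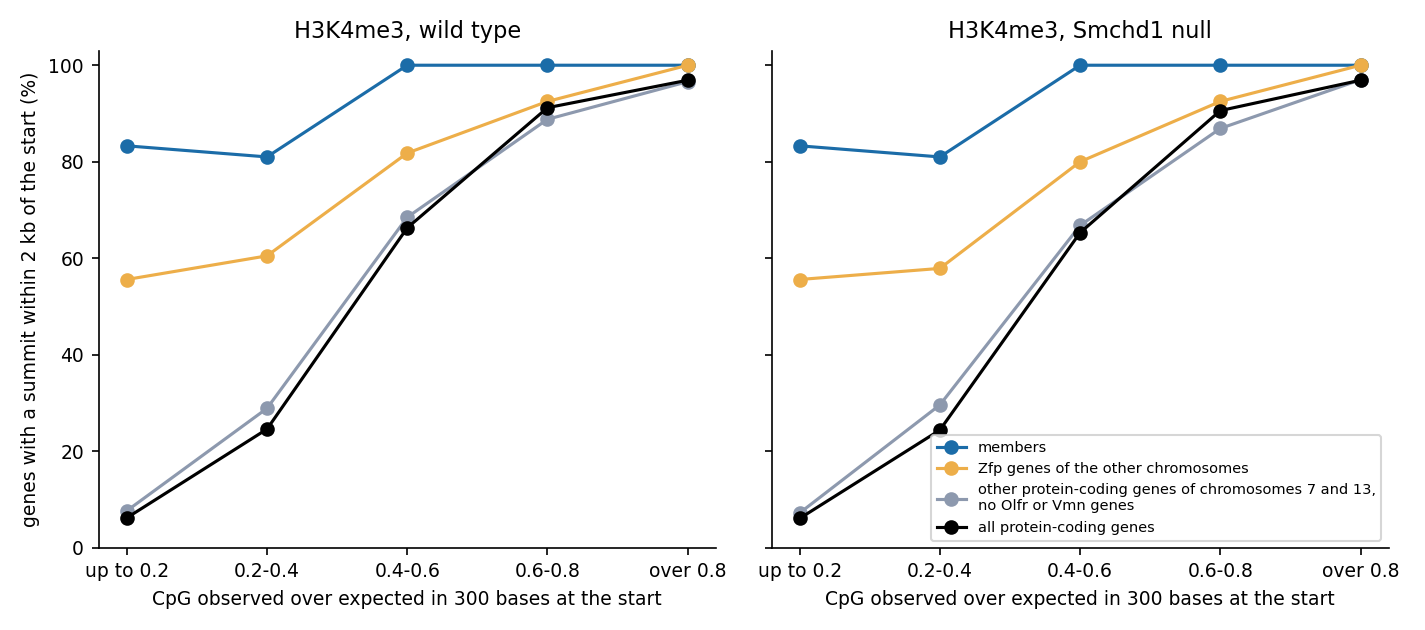
Share of genes, in percent, with an H3K4me3 summit within 2 kb of the start (vertical axis) by the ratio of observed to expected CpG in the 300 bases at the start (horizontal axis, 5 bins), for wild-type (left) and null cells (right). The Zfp genes of chromosomes 7 and 13 stay above 80% in every bin, while all protein-coding genes go from 6.20% in the lowest bin to 96.9% in the highest in wild-type cells; the lowest bin holds 6 of these Zfp genes.

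Short sequence matches at the starts were counted in the same 300 bases on both strands. TTCCGG, the core of sites of ETS factors, occurred at 42 of 116 Zfp starts (36.2%) and at 19.1% of all starts. Among starts that carried H3K4me3 in both genotypes, the shares were 35.1% for the Zfp genes and 28.6% for all genes. CCAAT, the core of sites of NF-Y, occurred at 42.2% and 39.0%. The unmarked starts of Zfp977, Zfp936 and Zfp640 held both.

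H3K27me3, which Polycomb repressive complex 2 deposits, was listed at 0 of the 130 Zfp genes in either genotype. It was rare in general, at 1.03% of all genes in the wild-type list and 0.197% in the null list. Those lists hold 732 and 77 summits over the whole genome, and an absent summit is not an absent mark.

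MBD summits, which mark dense DNA methylation, were listed at 94 Zfp genes (72.3%) in the list named for wild type and at 88 (67.7%) in the list named for D1. Over all genes the shares were 71.6% and 68.3%, so the set as a whole stood near the background. The genes of each chromosome stood on opposite sides of it. On chromosome 7, 78 of 93 Zfp genes (83.9%) had a summit in the list named for wild type, against 62.8% of the other coding genes of the chromosome. On chromosome 13, 16 of 37 (43.2%) had one, against 62.2% of the others. For both chromosomes together, the other genes without Olfr and Vmn stood at 73.4%. In the list named for D1 the Zfp shares were 79.6% on chromosome 7 and 37.8% on chromosome 13.

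The contrast was also present among genes of like length. The Zfp genes of chromosome 13 were longer, with a median of 20178 bp against 14935 bp on chromosome 7. Among genes of 10 to 50 kb, 79.0% of the Zfp genes of chromosome 7 and 39.4% of those of chromosome 13 had a summit in the list named for wild type. The other coding genes of that length stood at 81.0% and 73.8%. Within this length range, then, the Zfp genes of chromosome 7 stood close to their neighbours and those of chromosome 13 stood below theirs. The median of the highest score per marked gene in this length range was 45.0 for the Zfp genes of chromosome 7 and 18.2 for those of chromosome 13, against 49.9 over all genes. Over all lengths the medians were 59.3, 20.3 and 51.5, so the Zfp genes of chromosome 7 stood above all genes there and below them among genes of like length. MBD density from 10 to 50 kb was 10.2 summits per 100 kb in the Zfp genes of chromosome 7, counting 2 kb on each side. The other genes of chromosome 7 held 12.9 and all genes 12.7. On chromosome 13 the Zfp genes held 2.65 and the others 10.5.

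**Figure D3:**
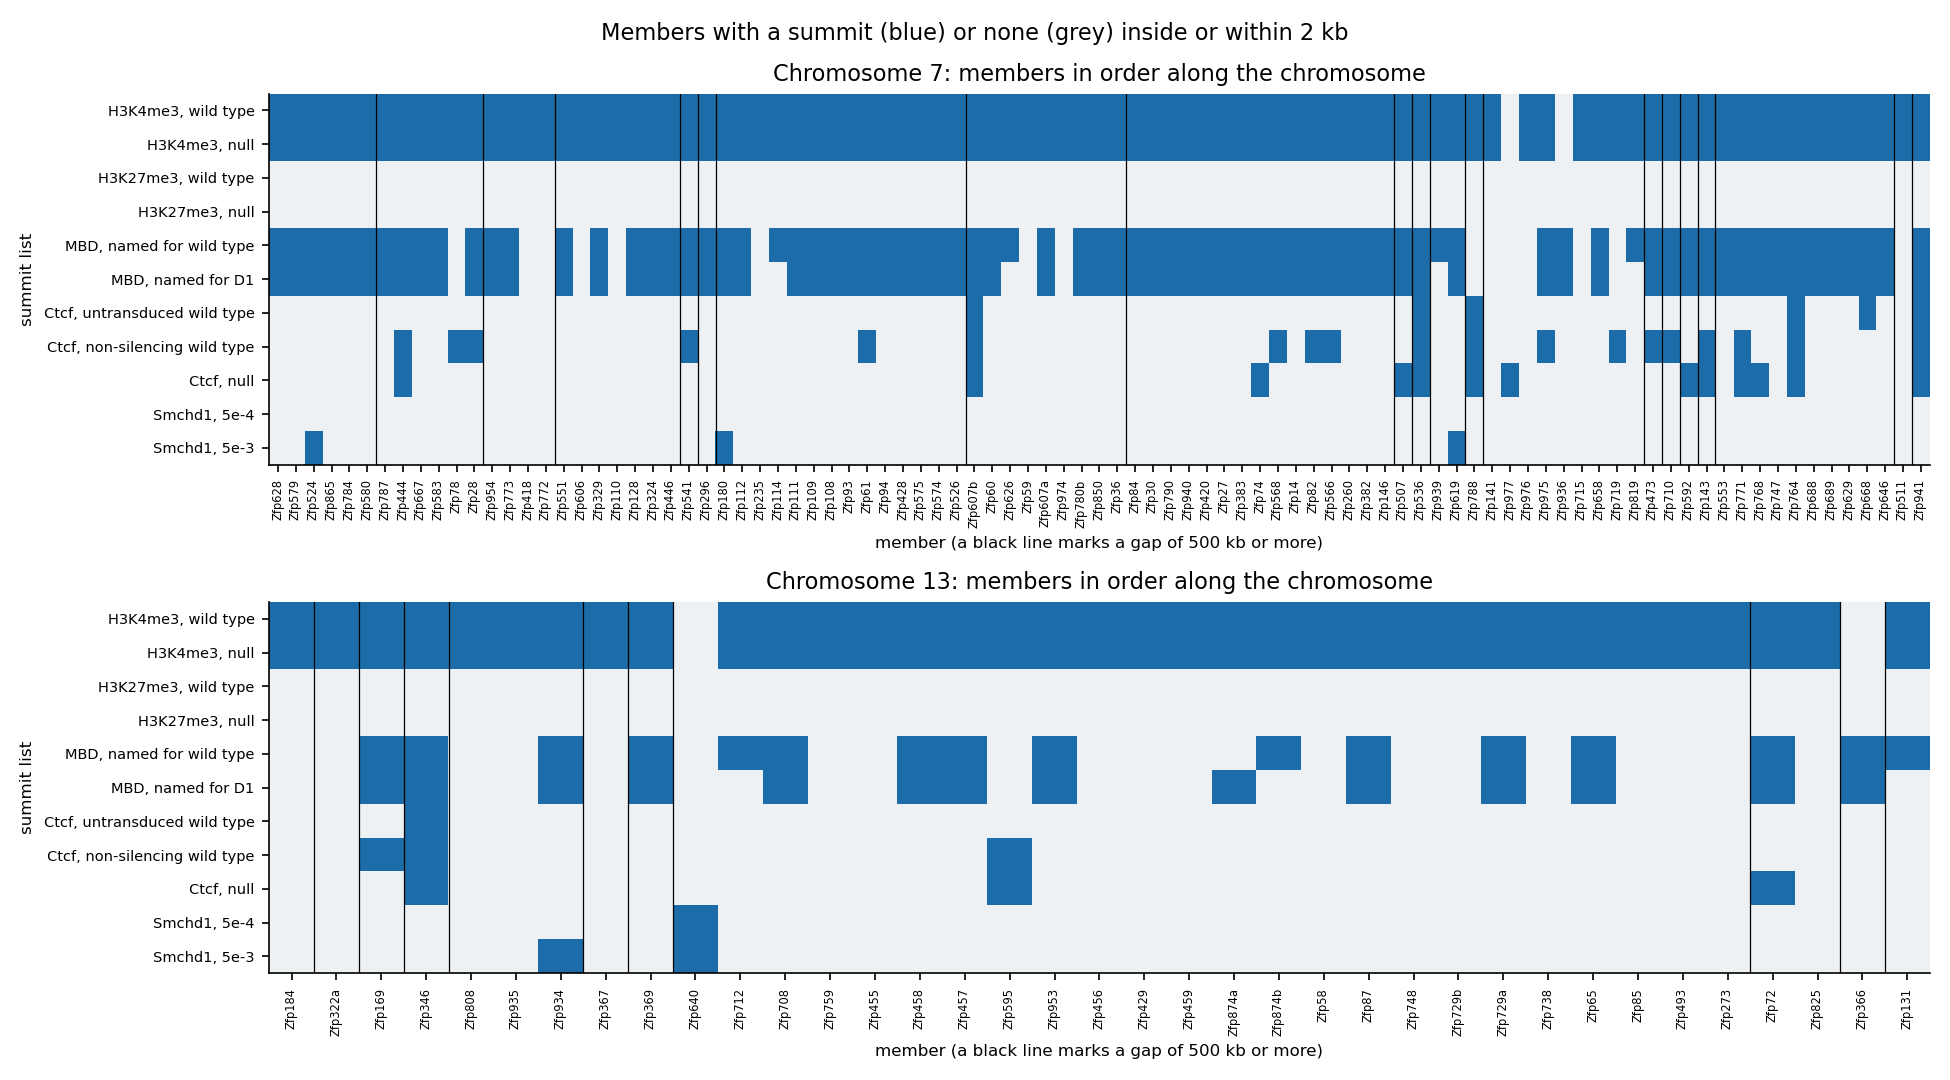
Presence of a summit inside or within 2 kb (blue) or none (grey) for each of the 130 Zfp genes, in order along chromosome 7 (top) and chromosome 13 (bottom), in the 11 lists (rows). The H3K4me3 rows are blue but for 4 genes, and the MBD rows are blue for most of chromosome 7 and broken on chromosome 13.

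MBD density also differed between clusters of 1 chromosome. With a gap of 500 kb as the limit, the 130 genes fell into 32 runs, 11 of them of 3 genes or more. The density of a run counts all summits from its first to its last gene, with 2 kb on each side. Other genes and the sequence between them are included. Over the largest run, the 24 genes from Zfp640 to Zfp273 (chr13:66670274-67827000), the list named for wild type held 35 summits, 3.02 per 100 kb. The chromosome as a whole, between its first and last gene, held 5.92 per 100 kb. MBD summits were listed at 9 of these 24 genes, with a median highest score of 15.0, while H3K4me3 was listed at 23 of them. This run includes Zfp457, studied as a candidate regulator of sex-limited liver proteins, whose single MBD summit scored 14.3 in the list named for wild type and 8.96 in that named for D1.

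On chromosome 7, the runs of 3 or more genes had densities on both sides of the chromosome's value, which was 6.15 per 100 kb between its first and last gene. The run of 9 genes from Zfp141 to Zfp819 (chr7:42473386-43618279) held 4.44 summits per 100 kb, and MBD was listed at 4 of the 9. These genes include Zfp977 and Zfp936, both without H3K4me3. The run of 7 genes from Zfp551 to Zfp446 held 5.89, that of 4 from Zfp954 to Zfp772 held 6.04. The run of 6 from Zfp787 to Zfp28 held 6.32, so all 3 were near that value. The remaining 5 runs lay above it, from 14.7 to 18.9. Counted only in the Zfp genes, with 2 kb on each side, the run from Zfp607b to Zfp36 held 5.68, against 14.7 over its span. The others of the 5 stayed at 14.4 to 18.6 in their Zfp genes. The chromosome's value also includes sequence far from genes. Counted in genes in the same way, the other coding genes of chromosome 7 held 9.31 per 100 kb, and those of 10 to 50 kb held 12.9. The run of 15 genes from Zfp84 to Zfp146 (chr7:29768552-30169775), which include Zfp568, held 17.8 per 100 kb with all 15 genes marked. The run of 14 genes from Zfp180 to Zfp526 (chr7:24081877-25227876) held 18.2 per 100 kb with 13 of the genes marked. The run of 10 genes from Zfp553 to Zfp646 (chr7:127233061-127885996) held 16.6 per 100 kb with all 10 genes marked.

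**Figure D4:**
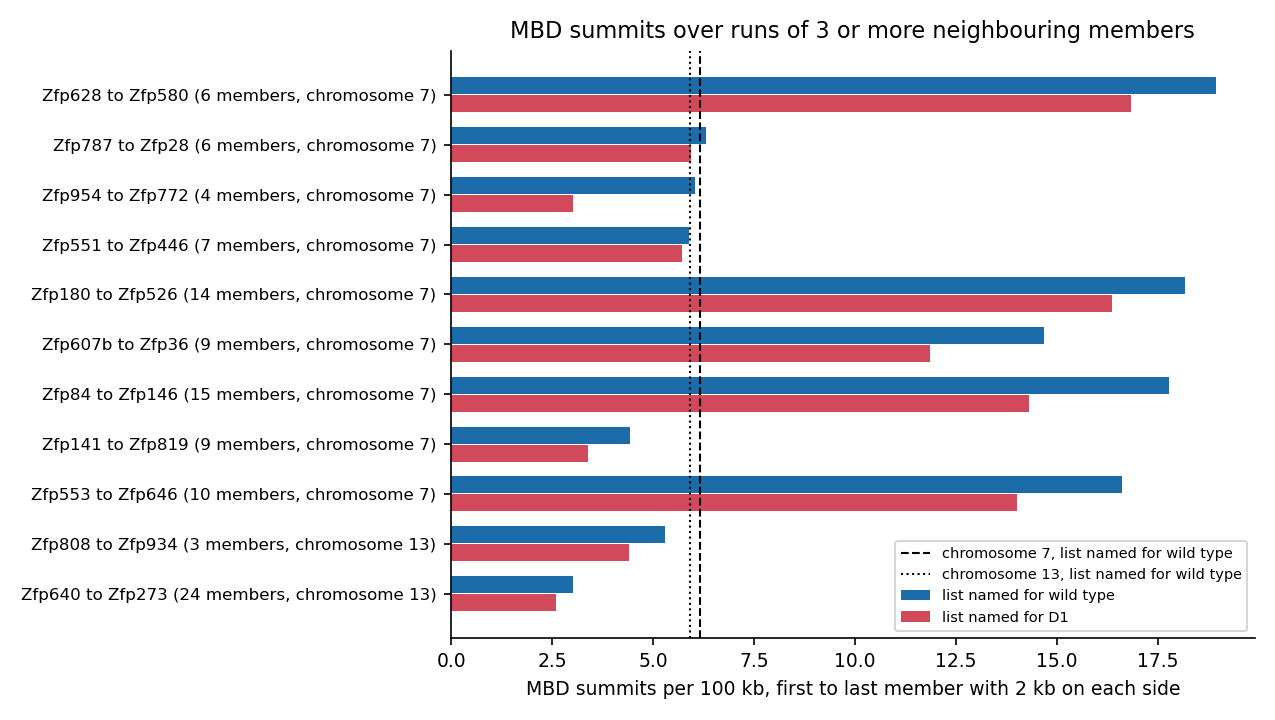
MBD summits per 100 kb (bars, horizontal axis) over each run of 3 or more neighbouring Zfp genes, in the list named for wild type (blue) and the list named for D1 (red), with the values of chromosomes 7 and 13 between their first and last gene as lines. In the list named for wild type, 5 runs of chromosome 7 lie between 14.7 and 18.9, and the other 6 runs between 3.02 and 6.32; the same 5 are the highest in the list named for D1.

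Within the genes of chromosome 7, MBD summits lay towards the far end. Along 85 genes with a known start, the list named for wild type held 6.63 summits per 100 kb in the first of 5 equal parts of the gene and 19.9 in the last. Over all genes the values were 6.12 and 13.1, so density was higher at the end in general. The groups were not matched for length here. Without Zfp536, the longest gene of the set, the Zfp values were 4.32 and 19.3. Along the 31 genes of chromosome 13 the first part held 0.76 and the last 3.04 per 100 kb. Within 2 kb of the far end, 40 of 116 Zfp genes (34.5%) had a summit in the list named for wild type and 37 (31.9%) in that named for D1, against 37.9% and 33.3% of all genes. The chromosomes differed here too. In the list named for wild type the far end was marked in 39 of 85 Zfp genes of chromosome 7 (45.9%), against 36.1% of its other genes, and in 1 of 31 on chromosome 13 (3.23%), against 208 of the 694 others with a known start. The others of chromosome 7 include its receptor genes. For both chromosomes together, the other genes stood at 34.3%, and at 40.3% without Olfr and Vmn genes, so receptor genes widen the difference on chromosome 7.

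**Figure D5:**
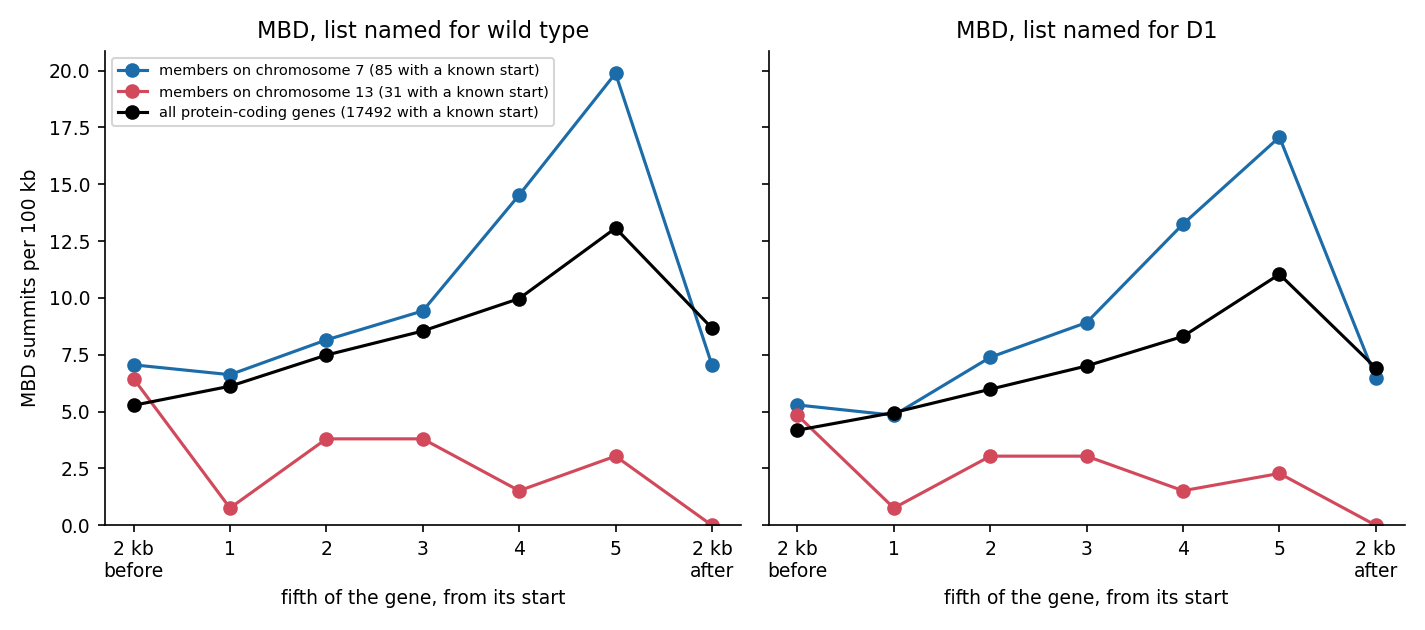
MBD summits per 100 kb (vertical axis) in each of 5 equal parts of the gene from its start and in the 2 kb before and after it (horizontal axis), in the list named for wild type (left) and for D1 (right). The Zfp genes of chromosome 7 go up to 19.9 in the last part in the left panel, above all protein-coding genes at 13.1, and those of chromosome 13 reach 3.80 inside the gene there. The groups are not matched for gene length.

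At the start, 28 Zfp genes (21.5%) had an MBD summit within 2 kb in the list named for wild type and 21 (16.2%) in that named for D1. The shares over all genes were 28.1% and 24.3%. Few MBD summits lay near H3K4me3, in the Zfp genes or in all genes. Distances were taken to the nearest H3K4me3 summit of either genotype. In the list named for wild type, 9 of 323 distinct MBD summits (2.79%) lay within 1 kb. The share in all genes was lower, at 1.39%. The median distance was 8813 bp, against 25966 bp in all genes.

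Zfp536 held the most MBD summits, 69 in the list named for wild type and 63 in that named for D1. Zfp366, 1 of the genes without H3K4me3, followed with 14 and 7. Zfp507 held 11 and 10, Zfp568 held 10 and 7, and Zfp710 held 9 and 9. Zfp646 followed with 7 and 6. In the list named for wild type 5 genes tied at 6, and in that named for D1 Zfp428 and Zfp934 held 6, Zfp592 and Zfp74 held 5, and Zfp61 held 4. Per length, the densest was Zfp646, with 5.35 summits per 10 kb, counting 2 kb on each side. Zfp428 followed at 3.96, Zfp575 at 3.75, Zfp61 at 3.57 and Zfp507 at 3.17. Zfp36 held 2 and 3 summits in its short span.

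MBD was listed in the list named for wild type only at 7 genes (5.38%), against 3.56% of all genes. These were Zfp114, Zfp626, Zfp939, Zfp819, Zfp712, Zfp874b and Zfp131. Each held 1 summit, and the scores ran from 7.32 in Zfp819 to 25.6 in Zfp131. Zfp874a alone was in the list named for D1 only, with a score of 7.82, against 0.289% of all genes. It lies in the same run as Zfp874b, and 16 of the 271 30-base runs at the start of each occur in the other. The list named for wild type is also the longer, with 156188 summits against 126631. No MBD was listed in either list at 35 of the 130 Zfp genes, against 6126 of all 21779 genes, so the set stood near the background. At 29 of the 35, H3K4me3 was the only mark of any list, a count not given for all genes. Zfp110, Zfp184, Zfp322a and Zfp367 were among them.

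Ctcf, an insulator protein found at the anchors of chromatin loops, was listed at few Zfp genes. The counts were 7 (5.38%) in untransduced wild-type cells, 22 (16.9%) in wild-type cells with a non-silencing shRNA and 16 (12.3%) in null cells. The shares of all genes were 20.1%, 36.1% and 25.8%, and those of Zfp genes of the other chromosomes 15.0%, 25.5% and 19.9%. No list held Ctcf at 101 of the 130, against 13020 of all 21779 genes. Within 2 kb of the start, 8 Zfp genes (6.15%) had a summit in the non-silencing list, against 13.8% of all genes.

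Both wild-type lists share a genotype and a control, yet in length they differ more from each other, with 8292 and 20483 summits, than either does from the null list with 11920. Of the 22 Zfp genes in the non-silencing list, 6 were in the untransduced list. Of the 16 in the null list, 10 were in the non-silencing list and 6 in the untransduced list. With the 3 lists cut to equal length by score, the counts were 7 in untransduced, 9 in non-silencing and 13 in null cells. The order of the non-silencing and null lists thus turned with list length, and no direction between genotypes was drawn from the counts.

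All 3 lists held Ctcf at Zfp607b, Zfp536, Zfp788, Zfp764, Zfp941 and Zfp346. These are 6 of the 130 Zfp genes, against 3200 of all 21779 genes. In Zfp536 the summit before the start scored 9.54 in untransduced, 10.9 in non-silencing and 18.7 in null cells, at -762, -750 and -741 bp from the start. In Zfp764 the summit lay at the start in all 3 lists, 11 bp past it in untransduced cells, at -39 bp in non-silencing cells and at -37 bp in null cells. Its scores were 11.5, 15.3 and 11.1. The Zfp764 start is shown with its match to AGNGGGC, part of the core of the Ctcf motif, in capitals.
Zfp764 (chr7:127406823-127407072, minus strand): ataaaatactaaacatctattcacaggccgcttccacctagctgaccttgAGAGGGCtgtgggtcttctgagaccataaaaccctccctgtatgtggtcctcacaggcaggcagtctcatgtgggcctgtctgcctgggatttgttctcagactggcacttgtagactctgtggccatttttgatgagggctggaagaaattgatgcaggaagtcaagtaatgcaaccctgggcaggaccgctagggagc

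The match lay 200 to 194 bases before the start, away from the summits. Such a match occurred in the 300 bases at 20 of 116 Zfp starts (17.2%) and at 29.6% of all starts, searched on both strands. A match is a description of the letters and not a binding site.

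Ctcf was in the null list and neither wild-type list at 6 Zfp genes (4.62%), against 2.74% of all genes. The highest score among them was 10.2 at Zfp74, at -835 bp from its start. Zfp72 followed with 9.57 and Zfp977 with 7.89, while Zfp768, Zfp507 and Zfp592 lay lower, down to 4.47 in Zfp592. Only 6 Zfp genes were in both wild-type lists, and none of these was absent from the null list. Over all genes, 4076 were in both wild-type lists. Of these, 876 (4.02% of all genes) were absent from the null list. Among the Zfp genes, the highest scores of the non-silencing list were 21.5 in Zfp536 and 21.1 in Zfp143, itself a factor that binds promoters at loop anchors; Zfp143 was also in the null list, at 9.31, and not in the untransduced list.

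Smchd1 was listed at 1 Zfp gene at the authors' threshold of 5e-4, against 0.854% of all genes, and at 5 (3.85%) at 5e-3, against 2.42%. Zfp genes of the other chromosomes stood at 6.74% in the longer list. At Zfp640, the gene at the edge of the large chromosome 13 run that lacks H3K4me3, 3 summits lay at its far end with scores of 8.87, 4.33 and 7.61, at 10782, 10483 and 10248 bp from the start. The list at 5e-3 held the first and second of them. The other 4 genes were in the 5e-3 list only. Zfp619 scored 5.18 at 120 bp past its start and Zfp180 3.65 at 144 bp past its start. Zfp934 scored 3.23 inside the gene and Zfp524 2.42, and all 4 of these genes carried H3K4me3 in both genotypes.

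Genes that act with KRAB zinc finger proteins or at their targets were looked at as a list of 29 names, of which 28 were annotated. It holds cofactors such as Trim28, Setdb1 and the Cbx proteins, and also the zinc finger genes Zfp57, Zfp42 and Zfp809. H3K4me3 was listed at 27 of the 28 in both genotypes, against 62.9% of all genes in wild-type cells, and the exception was Zfp42, a gene of pluripotent cells. MBD was listed at 24 of the 28 in the list named for wild type and 22 in that named for D1, against 71.6% and 68.3% of all genes. Ctcf was listed at 6 in untransduced, 8 in non-silencing and 9 in null cells, where the shares of all genes were 20.1%, 36.1% and 25.8%. H3K27me3 was listed at 0 of them. As a check of the labelled cell type, H3K4me3 was listed at 5 of 5 neural stem cell markers and at 0 of 2 pluripotency markers in both genotypes. It was also listed at 3 of 3 neuron markers, 1 of 3 glial markers, and, of 3 markers of blood and endothelium, 2 in wild-type and 1 in null cells.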

How the data were processed

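The authors sequenced chromatin immunoprecipitation and MBD libraries and deposited peak summits. Per the submitters' processing notes, CASAVA 1.4 and MACS2 version 2 were used and the build was mm10; the aligner is a detail not given in the sources used here. Per the labels, each list was called on pooled libraries against 1 pooled control. The deposited score is a −log10 p- or q-value, which of them is not stated. MBD libraries were isolated with a methyl-CpG-binding domain kit.

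Summits were assigned to RefSeq genes of GRCm38.p6 (Python 3.11.15, pandas 2.3.3, numpy 2.4.6) when inside or within 2 kb. Genes whose coordinates fall in the empty first 3 Mb of a chromosome were left out. The promoter table gave 116 of the 130 genes a start; for the other 14, either end counted as a start. The expected CpG count was the product of C and G counts over the length. The search for summits was checked against a direct search on simulated positions in 300 genes.

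The lists pool the libraries of a group, so no test was possible and no p-value is given; shares are set beside those of all protein-coding genes. Genes were named by rule (ties for the most MBD included): those marked in 1 list of a pair or in none, those with Smchd1, those with the most or densest MBD, those with the highest H3K4me3 and Ctcf scores, and Zfp36, Zfp536 and Zfp568. Genes named for low scores, CpG content, shared starts or clusters were picked with their values in view. The genes and lists were chosen with earlier results of these data known. Alternatives changed the distance, score, list length and membership.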

Additional observations from a re-analysis of the deposited data

How the results depend on the processing

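No paired analysis was possible because each list pools its libraries, and no library could be left out for the same reason. Of 142 alternative values for 29 results, 117 stayed within 1.5 times. The alternatives for CpG-poor starts, a distance of 500 bp from the start and leaving out Zfp536 were chosen after seeing the data, and no value under these moved further. The split by chromosome was also chosen then: MBD density in the list named for wild type was 9.56 summits per 100 kb for the set, 11.7 on chromosome 7 and 4.41 on chromosome 13. It was 8.93 over all genes, 9.31 in the other genes of chromosome 7 and 7.88 in those of chromosome 13. Among genes of 10 to 50 kb, the Zfp genes of chromosome 7 held 10.2 and all genes 12.7. H3K4me3 in 1 list only, 0 as reported, became 4 genes for wild type and 3 for null with summits inside the gene only, and 1 for wild type at scores of at least 10. Ctcf in untransduced cells, 7 genes, became 4 inside the gene only, 4 at scores of at least 10 and 3 without genes near another coding gene. In non-silencing cells 22 became 12 at scores of at least 10, 9 at equal list lengths, below the 13 of null cells there, and 13 without genes near another. In null cells 16 became 10 inside the gene only and 5 at scores of at least 10. Ctcf in null cells only went from 6 to 1, and Ctcf in both wild-type lists only from 0 to 1, at scores of at least 10. MBD in the list named for D1 went from 88 to 57 without genes near another coding gene, which leaves 94 genes. MBD in the list named for wild type only went from 7 to 4 at scores of at least 10 and 3 at equal list lengths. MBD in the list named for D1 only went from 1 to 2 within 5 kb, and to 0 both at scores of at least 10 and without genes near another. MBD within 2 kb of either end, 59 and 49 genes, became 36 and 31 within 1 kb and 93 and 85 within 5 kb. Smchd1 went from 1 gene to 5 in the 5e-3 list and to 2 within 20 kb. Read numbers are not in the lists, so an absent summit is not an absent mark.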
